A study of Mus musculus with 24 samples.

Results

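RNA polymerase II (Pol II) was mapped by chromatin immunoprecipitation and sequencing (ChIP-seq) in the liver of tet-Myc and wild-type mice, and the 2 resulting peak lists are compared here. They are the Pol II libraries of these genotypes among 24 samples of the series, 23 of which have a peak list, and the members are all 39181 peaks of the wild-type list and all 74914 peaks of the tet-Myc list. A tet-Myc peak that shared at least 1 bp with a wild-type peak was called kept, a tet-Myc peak that shared none was called gained, and a wild-type peak that shared none with the tet-Myc list was called lost.

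All animals carried R26-rtTA, the doxycycline-dependent transactivator expressed from the Rosa26 locus. Tet-Myc livers (genotype label R26-rtTA;tet-Myc) carried in addition a Myc transgene under a tetracycline operator, which doxycycline in the food switched on for 2 days. Wild-type livers (R26-rtTA;WT) had no such transgene, and whether these animals also received doxycycline is left unsaid in the labels and methods. The same antibody (N20-X) was used in tet-YAP livers, which carried an inducible YAP transgene, and in double transgenic livers (tet-Myc/YAP), which carried both, and these libraries are set beside the comparison where they bear on it. Each library is 1 sample. The labels and methods give neither age nor sex, nor whether livers were pooled. Whole liver was used and no gene annotation of this genome build was at hand to check liver markers, so that a change in Pol II per cell cannot be told apart from a change in the share of cells that hold it. Rosa26 is active in most cell types, so the transactivator is not restricted to hepatocytes.

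Pol II transcribes all protein-coding genes. It is recruited to promoters, where much of it pauses shortly after initiation, and is then released into the gene body, so that ChIP-seq shows sharp peaks at start sites and lower, broader signal along transcribed genes. Active promoters carry trimethylation of histone H3 at lysine 4 (H3K4me3), enhancers carry monomethylation of the same residue (H3K4me1), and acetylation of lysine 27 (H3K27ac) marks both when active. Myc binds DNA with its partner Max, mostly at promoters that are already open, and is known to act on Pol II recruitment and on pause release. TEAD proteins are the DNA-binding partners of YAP.

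The Pol II libraries differed in depth, which bears on every count that follows. The wild-type list was called from 20.9 M ChIP tags (1 M is 1000000 tags) and the tet-Myc list from 50.6 M, a ratio of 2.42. The lowest peak of the wild-type list had a pileup (the number of overlapping extended tags at its highest point) of 15, or 0.717 per M tags, whereas the lowest tet-Myc peak had 24, or 0.474 per M. The tet-Myc list therefore reached weaker sites. The kept, gained and lost sets, the regions of wild-type marks and the long stretches were also examined at equal number. For this the tet-Myc list was cut to its 39181 peaks of highest pileup, which moved its lowest value to 41 tags or 0.810 per M. Ranges of height and width, pileup ratios and widths at shared sites, distances, runs and chromosome shares use the full lists only. With 1 library per genotype there is no replicate spread and no test between genotypes. The 95% Wilson intervals given with shares cover counting error only, and neighbouring peaks of the same gene are not independent.

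Most wild-type Pol II peaks were found again in tet-Myc liver, and the tet-Myc list held many more. Of the wild-type peaks 35535 (90.7%) overlapped a tet-Myc peak and 3646 were lost, which is 9.31% of that list (interval 9.02 to 9.60). Of the tet-Myc peaks 28221 (37.7%) were kept and 46693 were gained, which is 62.3% of that list (interval 62.0 to 62.7). With lists of equal number the gained share fell to 39.3% (15415 peaks) and the lost share rose to 18.2% (7136 peaks), and 48.9% of the wild-type peaks lost in this way were still covered by a weaker peak of the full tet-Myc list. The strongest peaks were shared almost completely. Of the 5000 wild-type peaks with the highest pileup 99.8% were in the full tet-Myc list, and of the 5000 highest tet-Myc peaks 99.6% were in the full wild-type list.

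The gained share depended on the strength of the peak. Among tet-Myc peaks below the lowest pileup of any wild-type peak, 89.7% were gained (23155 of 25822). This fell to 75.4% between that value and 1 tag per M, to 47.6% from 1 to 1.5, and to 26.4% from 1.5 to 2. From 2 to 4 tags per M 526 of 6959 peaks were gained (7.56%), and at 4 or more only 18 of 4914 (0.366%, interval 0.232 to 0.578). The lost share fell likewise, from 21.2% of the wild-type peaks under 1 tag per M to 0.295% (10 of 3392) at 4 or more. The median pileup in tet-Myc liver was 0.731 per M for gained and 1.54 for kept peaks. In wild-type liver it was 1.00 for lost and 1.34 for kept wild-type peaks. Most gained and lost peaks were thus near the detection limit of their own list.

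The make-up of the gained peaks changed along the same scale. Below the lowest wild-type value 10.9% of the gained peaks lay on wild-type H3K4me3 and 5.61% overlapped a Myc peak of tet-Myc liver. From 1 to 1.5 tags per M the shares were 38.2% and 40.3%, and from 2 to 4 they were 63.9% and 75.1%. Of the 18 strongest gained peaks 66.7% lay on H3K4me3 and 88.9% had Myc. The Myc share of lost peaks moved far less along the scale, from 5.57% under 1 tag per M to 8.82% from 2 to 4, and 1 of the 10 lost peaks at 4 or more had Myc. Kept tet-Myc peaks also had more Myc the higher they were, from 9.34% below the lowest wild-type value to 97.8% at 4 or more. At matched height from 1 to 1.5 tags per M gained peaks (40.3%) held Myc more often than kept peaks (34.6%). The same held from 1.5 to 2 (64.0% against 59.4%). From 2 to 4 gained peaks held it less often (75.1% against 84.6%), as in the remaining ranges.

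**Figure D1:**
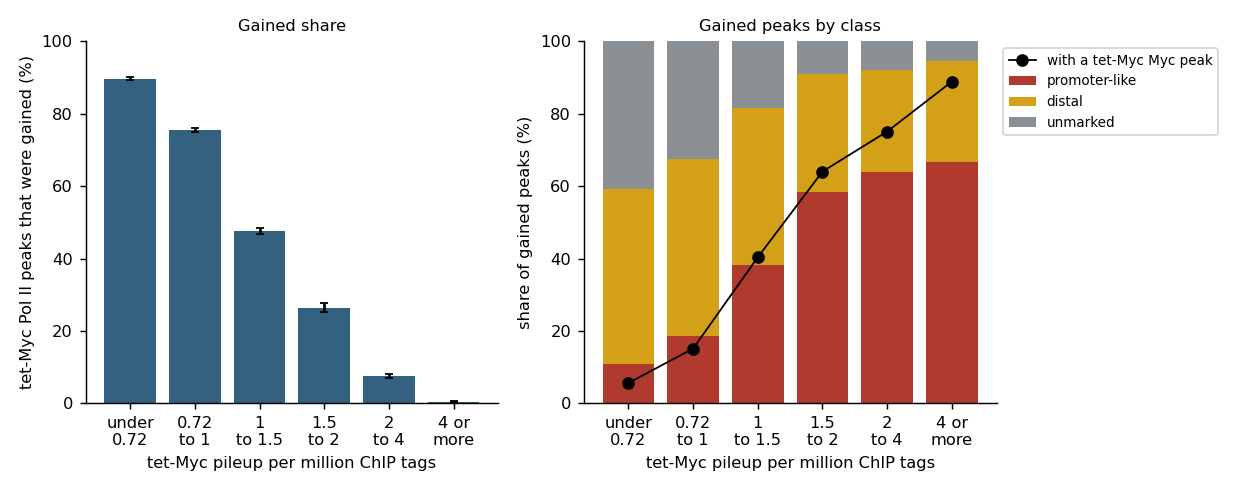
Gained tet-Myc Pol II peaks by height. The left panel gives, for 6 ranges of tet-Myc pileup per M ChIP tags, the share of tet-Myc peaks with no wild-type partner, with 95% Wilson intervals. The right panel gives the share of those gained peaks in each position class as stacked bars and the share with a tet-Myc Myc peak as points. The gained share falls from 89.7% to 0.366% while the Myc share among gained peaks rises from 5.61% to 88.9%.

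Position was set by the marks of wild-type liver. A peak that overlapped an H3K4me3 region was called promoter-like, a peak without H3K4me3 that overlapped H3K27ac or H3K4me1 was called distal, and the rest were called unmarked. The distal class also takes in marked stretches inside genes, so it is not a list of enhancers. Kept peaks were mostly promoter-like, with 57.4% in this class, 29.9% distal and 12.7% unmarked. Gained peaks were mainly distal (47.3%), with 34.2% unmarked and 18.4% promoter-like. Lost peaks had 56.6% distal, 27.7% unmarked and 15.7% promoter-like. With lists of equal number the promoter-like share of gained peaks was 31.6% and that of kept peaks 64.7%, whereas that of lost peaks was 16.5%. Distal peaks with wild-type H3K27ac made up 32.1% of the gained and 40.8% of the lost peaks, and those with H3K4me1 alone 15.2% and 15.7%.

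Most Pol II sites did not coincide with new acetylation. An H3K27ac region of tet-Myc liver at a place without one in wild-type liver was found at 6.02% of the gained, 2.99% of the kept and 4.11% of the lost peaks. It was found at 4.88% of the whole tet-Myc and 3.11% of the whole wild-type list. Among gained peaks the share was 7.17% for promoter-like, 6.46% for distal and 4.81% for unmarked peaks. Of the gained promoter-like peaks 86.6% already had H3K27ac in wild-type liver, and of the kept ones 96.4%.

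Myc and TEAD peaks of the same genotype were found most often at kept Pol II peaks and least often at lost ones. The Myc list of tet-Myc liver has 32592 peaks, and overlapped 54.1% of the kept, 15.1% of the gained and 7.32% of the lost Pol II peaks, against 29.8% of the whole tet-Myc Pol II list. Lost peaks come from the wild-type Pol II list, 44.0% of which overlapped this Myc list. The TEAD list has 44220 peaks, and overlapped 49.05%, 15.8% and 8.91%, against 28.3% of the whole tet-Myc and 38.4% of the whole wild-type Pol II list. Both factors together were at 43.0% of the kept, 10.1% of the gained and 3.81% of the lost peaks. With the lists as deposited the order was the same within the position classes. Of promoter-like peaks 80.4% of the kept, 40.04% of the gained and 18.99% of the lost ones had Myc, and of distal peaks 25.9%, 15.7% and 7.52%. Unmarked peaks were almost free of Myc, at 1.43%, 0.732% and 0.297%.

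A wider peak has more room for an overlap, and width moved with these shares. The median width was 1205 bp for kept, 535 bp for gained and 422 bp for lost peaks. Lost peaks are wild-type peaks, and the wild-type peaks that were kept had a median of 683 bp. Within a width range the order of kept and gained remained at promoter-like positions. Among promoter-like peaks above 442 and up to 700 bp 55.1% of the kept and 42.6% of the gained peaks had Myc, and above 700 and up to 1244 bp 84.1% and 53.1%. Distal peaks showed the same order with smaller gaps, at 23.3% and 18.3% in the narrower range and 32.5% and 19.4% in the wider one. With lists of equal number the distal kept and gained peaks had Myc alike, at 32.8% and 31.9%, while promoter-like ones stayed apart at 83.1% and 52.7%. TEAD was then at 32.1% of the distal kept and 33.6% of the distal gained peaks, the other order than with the lists as deposited (25.8% and 18.3%), and Myc at 1.87% and 1.97% of the unmarked ones.

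The factors of wild-type liver gave another picture for TEAD than for Myc. Wild-type TEAD peaks, 33417 in all, were at 48.3% of the kept, 12.0% of the gained and 10.2% of the lost Pol II peaks, which is lower than the tet-Myc TEAD list at gained and higher at lost peaks. The wild-type Myc list has only 4775 peaks, which were at 9.27% of the kept, 0.281% of the gained and 0.576% of the lost Pol II peaks. Its header gives a fragment size of 51 bp, the length of the tag itself, and its peaks have a median width of 81 bp. On the Y chromosome it has 173 peaks, against 3 in the Myc list of tet-Myc liver. The Pol II stretch chr1:67169048-67281158 alone holds 107 of its peaks, against 7 of the tet-Myc Myc list. The part of these features in its overlaps was not tested.

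**Figure D2:**
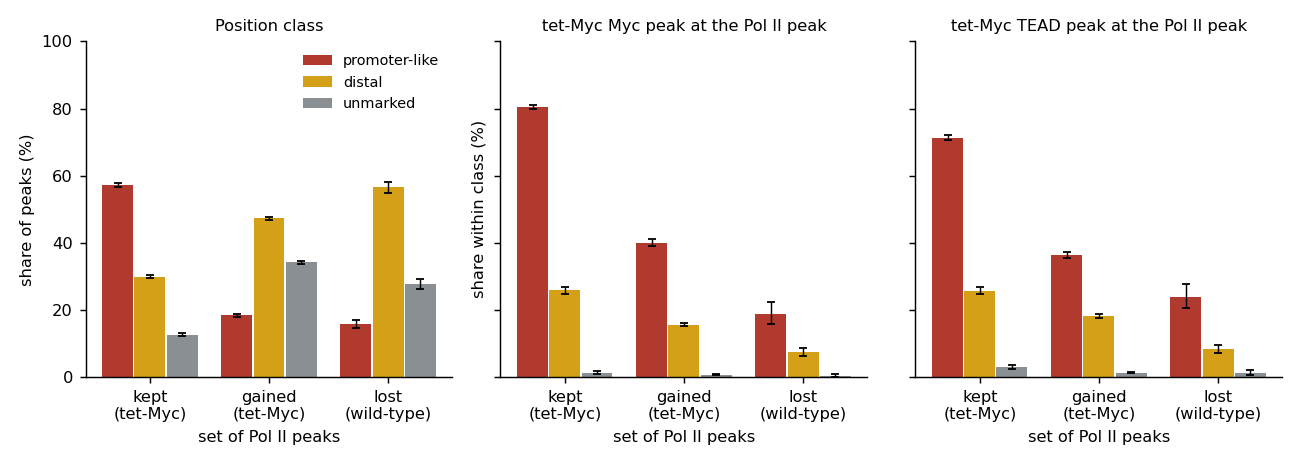
Position and factor overlap of kept, gained and lost Pol II peaks. Bars give the share of each set in the promoter-like, distal and unmarked classes (left), and within each class the share with a Myc peak (middle) or a TEAD peak (right) of tet-Myc liver, with 95% Wilson intervals. Promoter-like peaks make up 57.4% of kept, 18.4% of gained and 15.7% of lost peaks, and within this class Myc falls from 80.4% to 40.04% and 18.99%.

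The named peaks show these classes one by one, each chosen as a peak of highest −log10 q in its set and class. The strongest gained promoter-like peak, chr12:105315230-105328995 (mm9), was 13766 bp wide and had a pileup of 358 tags in tet-Myc liver (7.08 per M), with Myc and TEAD peaks. No wild-type Pol II peak lay within 40.8 kb of its summit, although H3K4me3, H3K27ac and H3K4me1 were all present in wild-type liver. Its highest pileup was 2.44 per M in tet-YAP and 4.08 in double transgenic liver. The second, chr9:95477713-95478449, was narrow at 737 bp and reached 6.96 per M in tet-Myc, 7.31 in tet-Myc/YAP and 2.20 in tet-YAP liver. It also had Myc and TEAD of tet-Myc liver, and the nearest wild-type Pol II peak was 7.17 kb away. Both were therefore marked as promoters in wild-type liver without a Pol II peak there.

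The strongest gained distal peaks carried Myc and TEAD as well. The peak chr17:32619925-32620599 had H3K4me1 alone in wild-type liver and H3K27ac in tet-Myc liver. Its pileup was 5.14 per M in tet-Myc and 6.07 in tet-Myc/YAP liver, and no tet-YAP peak overlapped it. The peak chr7:87793083-87803482, 10400 bp wide, had 4.49 per M in tet-Myc, 5.76 in tet-Myc/YAP and 1.56 in tet-YAP liver, and an H3K4me3 region appeared there in the tet-Myc list. The 2 strongest gained unmarked peaks, chr6:114592759-114594144 and chr17:8138045-8139070, had neither factor, no mark of wild-type liver, and no H3K4me3 or H3K27ac of tet-Myc liver. They reached 5.79 and 3.598 per M in tet-Myc and 4.28 and 3.29 in tet-Myc/YAP liver, had no tet-YAP peak, and lay 213 and 202 kb from any wild-type Pol II peak. All 6 named gained peaks were also in the tet-Myc/YAP list, and 3 were in the tet-YAP list.

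None of the 6 named lost peaks had a Myc or TEAD peak of tet-Myc liver. The strongest promoter-like one, chr8:41952839-41955321, had 133 tags in wild-type liver (6.36 per M), and 2.70 per M in tet-YAP and 1.70 in double transgenic liver. It overlapped a wild-type Myc peak, and a tet-Myc Pol II peak lay 2.52 kb from its summit. The second, chr12:73729228-73730042, had 4.69 per M in wild-type, 5.49 in tet-YAP and 0.851 in double transgenic liver. Both kept H3K4me3 and H3K27ac in tet-Myc liver.

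The lost distal peaks were lower. The peak chr1:72881484-72888202 had 3.06 per M in wild-type, 0.821 in tet-YAP and 0.567 in double transgenic liver, and chr17:85073632-85077647 had 2.34, 1.96 and 1.44. Both lay on H3K27ac and H3K4me1 and within 5 kb of a tet-Myc Pol II peak. Of the lost unmarked peaks chr6:142375230-142382124 had 3.92 per M in wild-type and 2.07 in tet-YAP liver, and chr18:68851481-68852089 had 4.59 and 2.57. Neither was in the tet-Myc/YAP list. The latter was enriched 7.39-fold over the control, against 22.8-fold for the former. All 6 named lost peaks were in the tet-YAP list.

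Kept peaks of highest rank were strong in all genotypes. The promoter-like peaks chr4:49547060-49562989 and chr4:131825533-131826746 had 10.8 and 10.9 per M in tet-Myc and 12.9 and 10.04 in wild-type liver. The distal peaks chr9:65043689-65044843 and chr5:90902731-90908221 had 7.81 and 7.08 against 6.84 and 9.08. The unmarked peaks chr3:98111528-98117992 and chr7:53227026-53235883 had 7.69 and 5.24 against 5.74 and 5.45. On this scale each of the 6 peaks differed by less than 1.5-fold between the genotypes.

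Gained peaks were next asked for in the other transgenic livers. Of the peaks gained in tet-Myc liver 48.1% were in the tet-Myc/YAP list and 29.9% in the tet-YAP list, against 89.6% and 89.4% of the kept peaks. The tet-Myc/YAP list is the longer and deeper of these, with 64678 peaks from 45.8 M ChIP tags against 54617 from 37.7 M. The part of this in the shares was not tested. The comparisons share the wild-type library, so that a site missed there counts as gained in each of them. The promoter-like gained peaks were found in tet-Myc/YAP more often (63.5%) than the distal (44.3%) and unmarked ones (45.1%), and in tet-YAP liver the shares were 40.8%, 25.6% and 30.01%. Height again separated them. From 2 to 4 tags per M 93.2% of the gained peaks were in the tet-Myc/YAP list and 64.3% in the tet-YAP list, and below the lowest wild-type value 32.6% and 19.3%. Lost peaks had the other order, with 48.8% in the tet-YAP list and 32.2% in the tet-Myc/YAP list.

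Set against the wild-type list each transgenic library gave its own gained peaks. At 2 or more tags per M 544 tet-Myc peaks were gained (4.58% of such peaks), 440 in tet-Myc/YAP liver (4.14%) and 136 in tet-YAP liver (1.38%). The Myc list of tet-Myc liver overlapped 75.6%, 66.8% and 52.2% of them. With all lists cut to equal number the gained share was 39.3% in tet-Myc, 39.6% in tet-Myc/YAP and 34.4% in tet-YAP liver, and 31.3%, 25.7% and 18.9% of these peaks had Myc. Of the wild-type peaks lost in each comparison 9.70%, 15.6% and 19.7% had Myc. A gained share of 34.4% thus also arose in tet-YAP liver, which carries no Myc transgene. Of the 3 livers tet-Myc had the highest Myc share among gained and the lowest among lost peaks. With the lists as deposited the shares among gained peaks were close, at 15.1% in tet-Myc, 14.9% in tet-Myc/YAP and 13.4% in tet-YAP liver. The Myc list was that of tet-Myc liver for all 3, and the part of this was not tested.

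Regions fixed by wild-type marks give the comparison without reference to Pol II peak borders. Of the 18852 wild-type H3K4me3 regions 63.9% had a Pol II peak in wild-type liver and 77.5% had one in tet-Myc liver, against 71.1% in tet-YAP and 73.5% in double transgenic liver. In 6804 regions the wild-type list had no Pol II peak. Of these 2708 had one in tet-Myc liver, which is 39.8%. Where a Myc peak of tet-Myc liver lay in the region the share was 72.1% (1741 of 2414, interval 70.3 to 73.9), and where none did it was 22.03% (967 of 4390, interval 20.8 to 23.3).

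The contrast between regions with and without Myc was smaller in tet-YAP liver. There 40.3% of the same regions with Myc and 16.8% of those without had a Pol II peak, and in tet-Myc/YAP liver 60.0% and 16.6%. With lists of equal number the regions without Myc came closer together, at 14.6% in tet-Myc liver, against 13.8% in tet-YAP and 12.5% in double transgenic liver. The regions with Myc stayed further apart, at 58.9%, 35.1% and 51.5%. The Myc list was that of tet-Myc liver throughout. Regions with Myc were thus also filled more often in tet-YAP liver, and the share was higher in tet-Myc liver.

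The shares differed less by TEAD than by Myc. Divided by Myc and by wild-type TEAD, the H3K4me3 regions without wild-type Pol II had a tet-Myc peak in 77.1% where both factors were present, in 63.2% with Myc and no TEAD, in 31.4% with TEAD and no Myc and in 19.7% with neither. Wide regions had Pol II more often, and the difference by Myc was present in each width quartile of the regions. In the narrowest quartile the shares were 62.3% with and 16.8% without Myc, and in the widest 81.2% and 30.2%. H3K4me3 regions with Pol II in wild-type liver rarely lacked it in tet-Myc liver. Of the 12048 regions with a wild-type peak 144 had none in tet-Myc liver (1.20%), which was 0.403% of those with Myc and 8.82% of those without. With lists of equal number the shares were 2.44%, 1.05% and 15.8%.

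Distal acetylated regions showed the same order at lower shares. Of the 5907 wild-type H3K27ac regions without H3K4me3 18.4% had a Pol II peak in wild-type liver and 44.2% had one in tet-Myc liver, against 27.4% in tet-YAP and 33.2% in double transgenic liver. Of the 4820 without a wild-type peak 1617 had one in tet-Myc liver, which is 33.5%. The share was 51.4% (1190 of 2313) with Myc and 17.03% (427 of 2507) without. In tet-YAP liver it was 20.2% and 10.4%. With lists of equal number the shares in tet-Myc liver were 34.3% and 6.86%, and in tet-YAP liver 15.0% and 7.18%, so that the regions without Myc again differed by less than their intervals. Wild-type TEAD made little difference here, with 53.0% for Myc and TEAD, 46.8% for Myc alone, 17.3% for TEAD alone and 16.8% for neither. Regions that became occupied had a median width of 8737 bp against 6370 bp for those that did not.

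**Figure D3:**
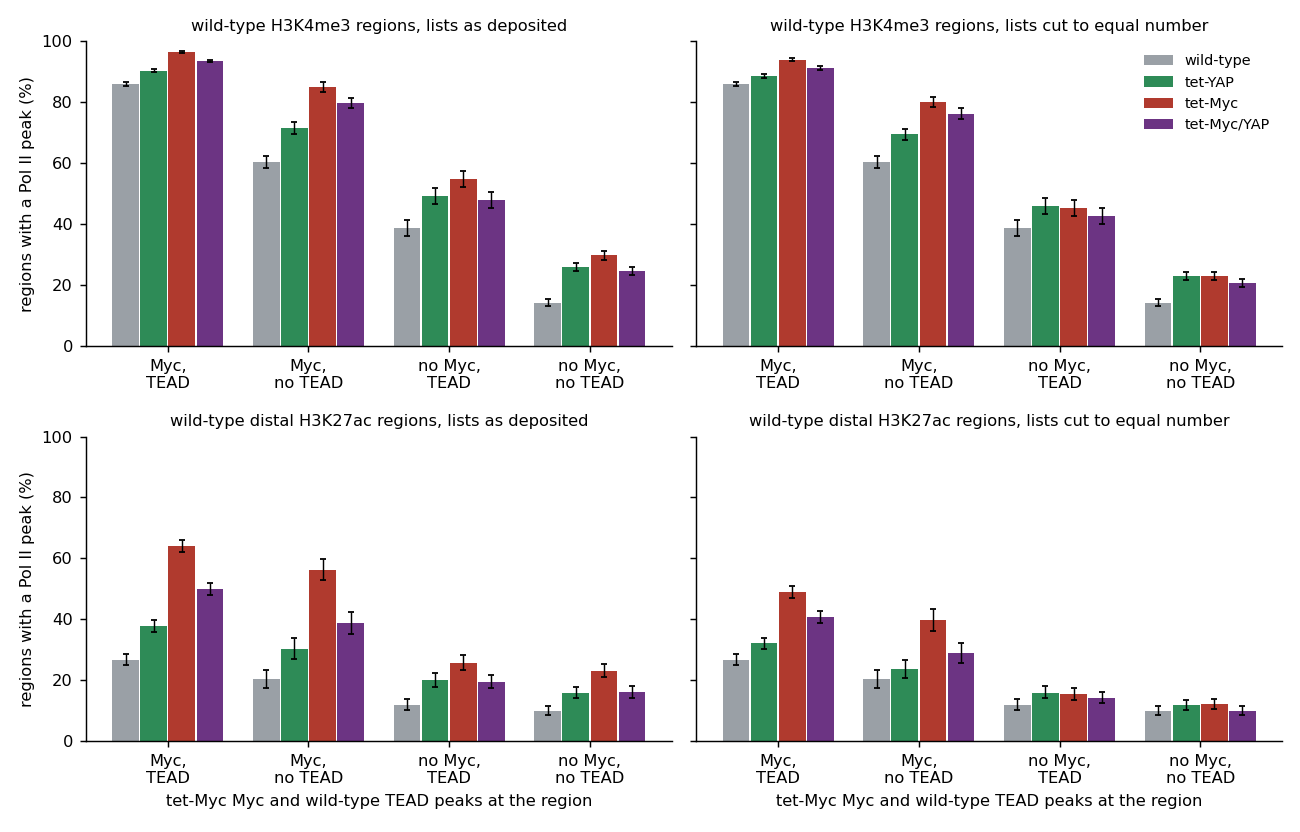
Pol II at regions fixed by wild-type marks. Bars give the share of wild-type H3K4me3 regions (top) and of H3K27ac regions without H3K4me3 (bottom) that held a Pol II peak in each of the 4 livers, with the lists as deposited (left) and cut to equal number (right), divided by Myc peaks of tet-Myc liver and TEAD peaks of wild-type liver, with 95% Wilson intervals. In regions without Myc the intervals of the tet-Myc and tet-YAP bars overlap once the lists have equal number, and in regions with Myc the tet-Myc bar is the highest.

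Signal at sites present in both lists was compared next. Peaks of the 2 lists that overlapped were joined into 25536 sites, and the highest pileup per M tags in tet-Myc liver was divided by that in wild-type liver. The median log2 ratio over all sites was 0.04. It was 0.20 at promoter-like, −0.21 at distal and −0.20 at unmarked sites. At promoter-like sites with Myc (12753) the median was 0.24, or 1.18-fold, with 71.3% of the sites above 0, and at those without Myc (2712) it was −0.09 with 43.5% above 0. At distal sites the medians were −0.00 with Myc and −0.27 without. The difference by Myc was 0.32 on the log2 scale at promoter-like and 0.27 at distal sites.

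The other transgenic livers were compared with the same wild-type library. In tet-YAP liver promoter-like sites had a median of −0.06 with Myc and −0.09 without. In tet-Myc/YAP liver the medians were 0.07 and −0.22, which are both lower than in tet-Myc liver and somewhat closer together. Distal sites had −0.21 and −0.27 in tet-YAP and −0.24 and −0.41 in tet-Myc/YAP liver. A scaling by total tags sets the zero of each ratio, so that a level below 0 is relative to the rest of the library.

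At promoters the ratio did not increase steadily with Myc enrichment. By quartiles of Myc fold enrichment, from lowest to highest, the median log2 ratio of promoter-like sites was 0.21, 0.26, 0.25 and 0.23. Distal sites had −0.08, −0.07, 0.01 and 0.12. Promoter-like sites with a Myc peak in tet-Myc liver alone had a median of 0.27, and those that also had one in wild-type liver 0.13. The wild-type Myc list has the unusual features given above, and how far this division follows Myc binding was not tested. By quartiles of wild-type Pol II pileup, promoter-like sites with Myc had medians of 0.35, 0.37, 0.40 and 0.12, and those without had −0.05, −0.12, −0.10 and −0.12, so that the difference by Myc was present at each starting level and smallest at the highest.

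**Figure D4:**
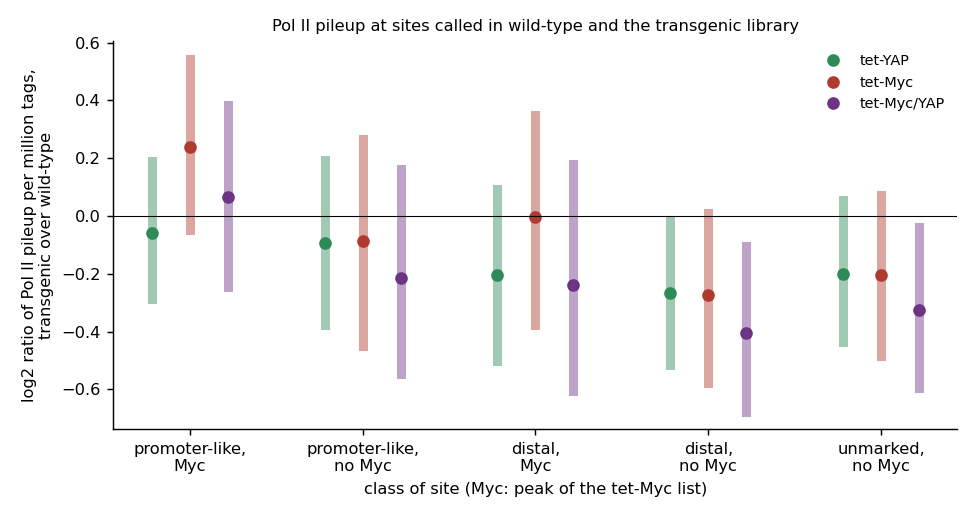
Change in Pol II height at shared sites. Points give the median and bars the interquartile range of the log2 ratio of pileup per M tags, transgenic over wild-type, for sites divided by position and by a Myc peak of the tet-Myc list. The tet-Myc median is 0.24 at promoter-like sites with Myc and −0.09 without, and the tet-YAP medians there are −0.06 and −0.09.

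Large changes were few. At least 2-fold higher in tet-Myc liver were 929 of the 25536 sites (3.64%), and at least 2-fold lower were 684 (2.68%). The weakest shared sites have little room to fall before they leave the tet-Myc list, and the part of this was not tested. The 2 groups differed in kind. Of the higher sites 84.1% were promoter-like and 87.8% had Myc, of the lower sites 28.8% and 22.8%, against 60.6% and 58.4% of all sites. Most of the lower sites were distal (55.8%).

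Among the 14217 sites with at least 30 tags in both lists, the highest ratios were at promoter-like sites. The site chr19:12769970-12782307 rose from 33 tags in wild-type (1.58 per M) to 353 in tet-Myc liver (6.98 per M), a 4.42-fold difference, and had 2.33 per M in tet-YAP and 2.49 in double transgenic liver. The site chr8:42300049-42304059 had 1.96 and 7.43 per M, with 5.03 in tet-YAP and 7.09 in double transgenic liver. The site chr13:4522223-4523006 had 1.67 and 6.23, with 3.97 and 6.11. TEAD was present at all 3 in wild-type and tet-Myc liver, and Myc at 2 of them, the exception being the site on chromosome 13.

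The lowest ratios came from 2 loci. The site chr6:142402382-142413877, distal, had 98 tags in wild-type (4.69 per M) and 41 in tet-Myc liver (0.810 per M), a 5.78-fold difference, with 2.20 per M in tet-YAP and no peak in double transgenic liver. It lies within 50 kb of the lost unmarked peak named above on that chromosome. The promoter-like sites chr8:41978095-41988001 and chr8:41955788-41968955 fell from 4.97 to 0.969 and from 7.17 to 1.46 per M, and lie within 50 kb of the strongest lost promoter-like peak. In tet-YAP liver they had 3.26 and 3.68, and in tet-Myc/YAP liver 1.40 and 2.20. These 3 sites had a Myc peak in both genotypes, within the limits of the wild-type Myc list given above.

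Pol II peaks were wider in tet-Myc liver. At 19246 sites made of 1 peak from each list (75.4% of the shared sites) the median width was 682 bp in wild-type and 1065 bp in tet-Myc liver, and 82.7% were wider in tet-Myc liver. The median ratio was 1.29 at promoter-like, 1.57 at distal and 1.92 at unmarked sites. At 4440 further sites several wild-type peaks fell into a single tet-Myc peak, and at 936 the reverse was seen. Width moved with depth, since the tet-Myc library had 2.42 times the tags, and the part of depth in the difference was not tested. The whole lists covered 41.5 Mb in wild-type and 92.5 Mb in tet-Myc liver, a ratio of 2.23, and 72.7 Mb (1.75) with equal number.

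Long stretches of Pol II, such as those over highly transcribed genes, were assembled by joining peaks within 1000 bp. There were 24753 stretches in wild-type liver with a median of 869 bp, and 40556 in tet-Myc liver with a median of 1002 bp. Over 10 kb there were 677 and 2021, and over 50 kb 28 and 109. With equal number of peaks the tet-Myc list gave 1431 over 10 kb and 74 over 50 kb. This cut keeps the taller and wider peaks (median width 1128 bp, against 700 bp in the whole list), so it does not take the depth out of these lengths.

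The widest stretches differed in how far other libraries filled them. In wild-type liver the widest was chr15:58769893-58914126, 144 kb long and covered by peaks to 96.9% in wild-type and 88.6% in tet-Myc liver, with 98.7% in tet-YAP and 73.3% in double transgenic liver. The next 2, chr14:21893803-22006549 and chr1:67169048-67281158, were covered to at least 95.1% in all 4 livers. In tet-Myc liver the widest was chr8:42070698-42221302 at 150.6 kb, covered to 95.9% there and to 44.3% in wild-type, 81.3% in tet-YAP and 91.5% in double transgenic liver. The stretch chr5:122162955-122278599 had 92.6% in tet-Myc and 75.5% in wild-type liver, with 81.5% in tet-YAP and 96.3% in double transgenic liver. The third, chr15:3313718-3427898, was covered to 90.4% in tet-Myc, 48.3% in wild-type, 15.8% in tet-YAP and 0.933% in double transgenic liver, where it held a single peak. It overlapped no wild-type H3K4me3 region.

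The distance of gained peaks from Pol II of wild-type liver was measured without a reference set of positions, so it is not called short or long. The median distance from their summits to the nearest wild-type Pol II peak was 6.10 kb. Within 1 kb lay 10.5% of them, within 10 kb 62.5% and within 50 kb 90.8%. Promoter-like gained peaks were nearest, with a median of 3.14 kb, followed by distal (5.86 kb) and unmarked ones (8.48 kb). The promoter-like class was also the one with the largest share beyond 50 kb, at 13.1%. Lost peaks lay nearer to the other list than gained peaks did, at a median of 1.91 kb from a tet-Myc Pol II peak, with 34.1% within 1 kb. The tet-Myc list is the denser one, and the part of this was not tested.

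**Figure D5:**
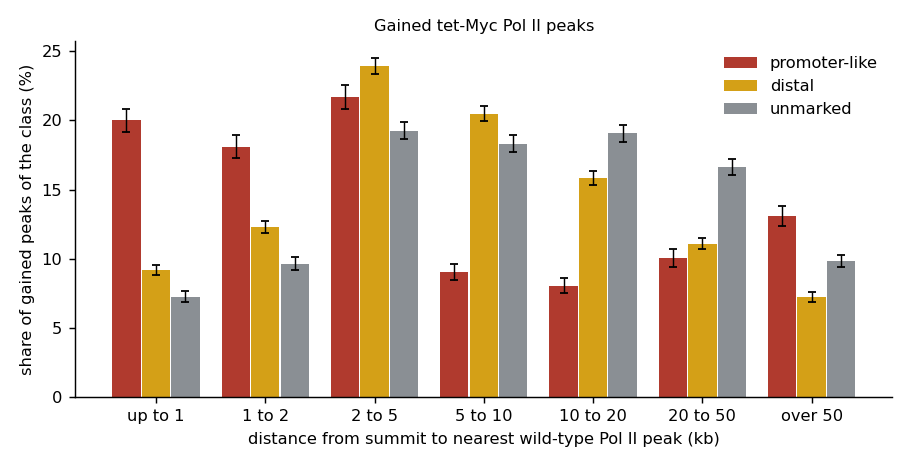
Distance of gained Pol II peaks from wild-type Pol II. Bars give the share of gained tet-Myc peaks of each position class whose summit lay at the given distance from the nearest wild-type Pol II peak, in 7 ranges of unequal length, with 95% Wilson intervals. Promoter-like peaks are spread over both ends, with 20.01% up to 1 kb and 13.1% over 50 kb.

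Some of the lower and lost sites lay in long runs. Of the 684 sites that were at least 2-fold lower 280 (40.9%) lay in runs of 3 or more with gaps of at most 50 kb, and the longest run had 31. Of the 929 higher sites 87 (9.36%) lay in such runs, none longer than 4. Of the lost peaks 2347 of 3646 (64.4%) lay in runs, up to 101 in a single one. The sets differ in size and in the density of the peaks they come from, and the part of this in the shares was not tested. These runs were examined after the lists had been compared.

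A pair of neighbouring runs on chromosome 3 held the most. In chr3:118281147-118523035 31 sites were 2-fold lower and the median log2 ratio of all 57 shared sites was −1.02. Peaks covered 63.7% of this stretch in wild-type and 24.99% in tet-Myc liver, with 35.0% in tet-YAP and 5.88% in double transgenic liver. In chr3:118678267-119083701 101 wild-type peaks were lost, and coverage fell from 24.2% to 6.52%, with 11.6% in tet-YAP and 0.103% in double transgenic liver. Chromosome 3 had the highest lost share of the autosomes at 15.8%, and 11.6% without this run. The neighbouring run of lost peaks, chr3:118271690-118557857 with 54 of them, is still counted in the 11.6%. The next longest run of lost peaks, chr11:83954982-84210699, held 69, with coverage of 33.7% in wild-type and 15.3% in tet-Myc liver, with 8.61% in tet-YAP and 3.44% in double transgenic liver. The highest peak of this run was not lower in tet-Myc liver, while the median log2 ratio of its 27 shared sites was −0.71. Its highest pileup was 3.68 per M in wild-type and 4.21 in tet-Myc liver, with 3.68 in tet-YAP and 3.32 in double transgenic liver. In the runs on chromosome 3 the highest pileup fell from 2.58 to 1.92 and from 1.86 to 0.870 per M. The runs were chosen for wild-type peaks that were lost or lower in tet-Myc liver, so the values of these 2 livers there are a description. In all 3 stretches coverage was also lower in the other transgenic livers than in wild-type liver. A choice by peaks of the wild-type library favours this order in any other library, and the part of this was not tested.

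Other lower runs differed from these. In chr2:27059055-27098070 11 sites were 2-fold lower, and peaks covered 81.3% in wild-type and 34.6% in tet-Myc liver, with 97.4% in tet-YAP and 69.2% in double transgenic liver. By height the double transgenic liver was nearer to tet-Myc liver there, with a highest pileup of 3.39 per M in wild-type and 1.28 in tet-Myc liver, against 2.49 in tet-YAP and 1.48 in double transgenic liver. In chr5:113519759-113564011 10 sites were lower, with coverage of 85.3%, 36.5%, 64.7% and 91.9% and a highest pileup of 3.25, 1.34, 4.27 and 6.20 per M. Among the higher runs, of 4 sites each, chr1:142041625-142078343 was covered to 8.36% in wild-type and 97.2% in tet-Myc liver, with 51.9% in tet-YAP and 5.27% in double transgenic liver. The run chr10:121816631-121887618 was covered to 5.70%, 62.6%, 2.17% and 9.36%. The third, chr13:21806863-21879700, was covered to 7.71% in wild-type and 23.74% in tet-Myc liver, with 9.05% in tet-YAP and 19.6% in double transgenic liver, and its highest pileup was 2.87, 5.73, 3.13 and 5.30 per M. The double transgenic liver, which carries the same Myc transgene, was thus close to tet-Myc liver in this run and not in the other 2 higher ones.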

How the data were processed

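Chromatin of formaldehyde-fixed liver was sonicated and immunoprecipitated, 1 library per antibody and genotype. Per the labels and file headers the authors aligned reads of 51 bases to mm9 with BWA 0.6.2 and called peaks for each library with MACS2 2.0.9 at a p-value of 1.00e-05, keeping at most 2 tags per position. The deposited narrow lists give, as the authors' values, the pileup (signal) at the summit, the ratio called fold enrichment over control, and −log10 p and −log10 q. The deposited lists of histone marks are regions with a score from the authors' peak caller, and that score was not used. The other 10 deposited lists were not used.

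Lists were compared by an overlap of at least 1 bp in Python 3 code that was tested on simulated peaks (11 of 11 checks passed on 2000 peaks), and bedtools gave the same counts of kept peaks. Pileup was divided by M (1000000) ChIP tags. Shares have 95% Wilson intervals. Named were the 2 peaks of highest −log10 q in each set and class, the 3 widest stretches of each list (peaks within 1000 bp joined), and the 3 shared sites of highest and lowest ratio with at least 30 tags in both lists. The members and lists were chosen with earlier results of these data known. Alternatives were lists of equal number, −log10 q of at least 10, equal pileup per M tags, summit overlap, joined peaks and marks of tet-Myc liver. Genes and sequences are not reported, since the annotation at hand is of another build.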

Additional observations from a re-analysis of the deposited data

How the results depend on the processing

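With the lists cut to equal number by pileup the gained share moved from 62.3% to 39.3% and the lost share from 9.31% to 18.2%. The promoter-like share was then 64.7% of kept and 31.6% of gained peaks, the Myc share 62.1%, 31.3% and 9.70% of kept, gained and lost peaks, and the TEAD share 56.0%, 30.1% and 11.1%. With peaks of a −log10 q of at least 10 the gained share was 61.6% and the lost share 6.22%, the promoter-like shares of kept, gained and lost peaks 72.2%, 27.03% and 20.2%, the Myc shares 68.3%, 25.5% and 11.3%, and the TEAD shares 60.9%, 25.3% and 12.5%. With peaks of equal pileup per M tags the values were 47.9% gained and 14.2% lost, 61.5% and 25.8% promoter-like among kept and gained peaks, 58.7%, 24.4% and 8.53% with Myc, and 53.1%, 24.1% and 9.92% with TEAD. With the summit required inside the partner they were 68.0% gained and 13.4% lost, 63.4% and 18.8% promoter-like among kept and gained peaks, 13.4% and 6.13% of gained and lost peaks with Myc, and 41.2%, 12.9% and 6.49% of the 3 sets with TEAD. With peaks within 1000 bp joined they were 54.3% gained and 7.56% lost, 69.2% and 19.2% promoter-like, 70.4%, 23.6% and 10.8% with Myc, and 65.6%, 25.3% and 13.7% with TEAD. With the H3K4me3 and H3K27ac regions of tet-Myc liver the promoter-like shares were 53.1%, 15.9% and 9.22%. With the top 5000, 10000 and 20000 peaks of both lists, chosen after seeing the data, 20.9%, 19.4% and 28.2% were gained and 19.1%, 14.7% and 16.1% lost.

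New Pol II at H3K4me3 regions moved to 58.9% with and 14.6% without Myc at equal number. At distal H3K27ac regions it moved to 34.3% and 6.86% at equal number, and to 47.2% and 13.5% with a −log10 q of at least 10. Of 78 values recomputed, 65 left the interval of the reported value and 13 stayed within it. Among the 13 were all 6 for the difference in log2 pileup ratio by Myc. For that difference the interval was built from those of the medians with and without Myc. Scaling by control tags multiplies every ratio by the same constant, so under that setting the difference could not move. In all 19 settings and measures checked, kept peaks had the highest and lost peaks the lowest share with Myc, with TEAD and in the promoter-like class. None of these settings matched kept and gained peaks for height. At matched height the order by Myc was the other one from 1 to 1.5 tags per M (40.3% of gained and 34.6% of kept peaks). It was so too from 1.5 to 2 (64.0% and 59.4%), and not in the remaining ranges. The cause of these shifts was not tested beyond the construction of each alternative. No paired analysis was possible because each genotype has 1 library and no test was made. Depth bears on both sets, since the wild-type library had fewer tags than the other Pol II libraries, and what a second wild-type library would give cannot be told from these lists.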

Other observations

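Of the 10 lost peaks with 4 or more tags per M 6 had a fold enrichment over control under 5, and their enrichments ranged from 1.84 to 37.05. The highest, chr17:39979847-39985892, reached 643 tags (30.7 per M) at an enrichment of 2.31, the highest pileup of the wild-type list, so that the control library was high there as well. The 18 gained peaks of that height had enrichments from 18.1 to 43.2. These peaks were singled out after their values had been seen.

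Chromosome 12 had the highest gained share of the autosomes, at 67.1%, and chromosome 17 the lowest, at 57.6%. Lost shares ranged from 4.01% on the X chromosome to 15.8% on chromosome 3, leaving aside the Y chromosome, with 6 peaks in the wild-type and 23 in the tet-Myc list.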
